A study of Sus scrofa with 4 samples.

Results

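Meiotic spermatocytes, the male germ cells that pair and recombine their chromosomes before dividing into spermatids, were described in the testis of pigs (Sus scrofa) at 90 days of age. They were 190 cells, 1.499% (exact Clopper-Pearson 95% interval 1.29 to 1.73%) of the 12675 barcodes of the 90-day library that passed the quality filters, among 55798 passing barcodes of 69602 in the whole series. The series profiled single cells of whole testis at 7, 30, 60 and 90 days, in 1 library per age. The labels give the tissue and the age of each library and no strain, treatment or number of animals, so nothing but age is known to separate the groups. With 1 library per age no difference has a replicate check and no test was run. Age and library cannot be told apart, and cells of 1 library are not replicates.

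A barcode passed with at least 1000 unique molecular identifiers (UMIs, counts of captured transcripts), at least 500 genes and no more than 15% of UMIs from 13 mitochondrial genes. The cells were chosen by measured UMI counts: a barcode was taken as a spermatocyte when it held no UMI of DMRT1, a transcription factor of spermatogonia and Sertoli cells, UMIs of at least 4 of the 7 meiotic genes SYCP1, SYCP2, SYCP3, HORMAD1, PIWIL1, MEIOB and SMC1B, and less than 0.5% of UMIs from TNP1, PRM1 and PRM2, which package spermatid DNA. At 90 days 808 passing barcodes held at least 4 of the meiotic genes. Of these, 611 had a DMRT1 UMI and were not members, and 7 of the other 197 were past the limit on TNP1, PRM1 and PRM2. Since expression chose the cells, every value below is a description of them, and levels of the rule's own genes are no finding.

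In prophase of the first meiotic division, homologous chromosomes are cut by a dedicated machinery, aligned along protein axes and joined by the synaptonemal complex. In mammals the X and Y chromosomes, which share little sequence, are silenced during this stage, and some autosomal retrocopies stand in for X-linked housekeeping genes. Spermatocytes also load RNA granules with piRNAs and begin to transcribe genes of the acrosome and flagellum long before those structures are built, in many cases storing the messenger RNA.

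Levels are given as UMIs of a gene per 1000000 UMIs of the summed counts of a group (CPM), with exact Poisson 95% intervals, and ratios as log2 of CPM with exact conditional binomial 95% intervals. All intervals cover counting error only, not the spread between cells, animals or libraries. A gene was measured in a comparison when both groups together held at least 50 UMIs, and "2-fold" says how large a ratio was, without a test. Beside all other passing barcodes of the 90-day library (12485), 3 sets of germ cells served for comparison. DMRT1-positive germ cells (560) had a DMRT1 UMI and both DDX4 and MAEL. Early spermatids (325) had no DMRT1 UMI and at least 3 of ACRV1, SPACA1, SPACA3 and ACTL7B. Protamine-high spermatids (1262) had 0.5% or more of their UMIs from TNP1, PRM1 and PRM2. The remaining 10338 passing barcodes were in none of these sets.

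The median spermatocyte held 5615 UMIs and 2688 genes, against 2638 UMIs and 1538 genes in the other passing barcodes. The cells ran from 1387 to 49379 UMIs, and the deepest 19 cells held 34.1% of all UMIs of the group, so that summed levels lean on them. The DMRT1-positive germ cells were deeper (median 9934.5 UMIs), the remaining barcodes (2767.5 UMIs) and the early and protamine-high spermatids shallower (2273 and 1307.5 UMIs). The spermatocytes held a median of 1.45% mitochondrial UMIs, against 3.36% in the other barcodes. A doublet caller, Scrublet, marked 862 (6.80%) of the passing barcodes and 11 (5.79%) of the spermatocytes, and none was removed. The 90-day library shared 84, 115 and 78 barcode sequences with the 7-, 30- and 60-day libraries, 5 of them spermatocytes of this set in all.

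The set was not pure by other markers. At least 3 of the 4 early spermatid genes were found in 26 of the 190 cells, with a median of 1.15% of UMIs from X-linked genes and 0.333% mitochondrial UMIs. Another criterion, at least 10 UMIs per 10000 from the marker lists of peritubular, Leydig, endothelial, macrophage and lymphocyte cells, was met by 57 cells, with medians of 2.57% X-linked and 4.29% mitochondrial UMIs. The 109 cells that met neither had medians of 0.752% and 0.908%. The comparison sets were not pure either. The somatic criterion was met by 131 of 560 DMRT1-positive germ cells, 96 of 325 early spermatids and 604 of 1262 protamine-high spermatids. At least 3 early spermatid genes were found in 63 DMRT1-positive germ cells. The Sertoli list, not part of the criterion, summed to 2670 CPM in spermatocytes, 4726 CPM in DMRT1-positive germ cells and 6888 CPM in early spermatids. RNA from other cells was present throughout: CLU, a secreted product of Sertoli cells, was found in 98.9% of spermatocytes at 1876 CPM and in 98.8% of the remaining barcodes at 7883 CPM. TNP1, the main transcript of late spermatids, was found in 98.4% of spermatocytes at 624 CPM and in 94.8% of the remaining barcodes at 775 CPM. The part of such RNA in the results below was not tested. What the results are without the 26 or the 57 cells is given where it matters.

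The rule's own genes were distributed unevenly. SMC1B, a meiotic cohesin subunit, was found in 94.7% of spermatocytes, SYCP2 and SYCP3, components of the chromosome axis, in 78.4% each, and HORMAD1, an axis protein that marks unsynapsed chromosomes, in 63.2%. SYCP1, which bridges the paired axes, was found in 61.6%, MEIOB, which binds single-stranded DNA at recombination sites, in 51.6%, and PIWIL1, the piRNA-binding protein of pachytene cells, in 46.8%. In the remaining barcodes, at lower depth, the same shares were 35.5% for SMC1B, 20.4% for SYCP3 and between 3.87% and 12.6% for the other 5. PIWIL1 stood at 196 CPM in spermatocytes, 25.6 CPM in DMRT1-positive germ cells and 5.90 CPM in early spermatids. HORMAD1 stood at 165, 47.4 and 8.85 CPM in the same order of groups. SMC1B was at 381 CPM in spermatocytes and 470 CPM in DMRT1-positive germ cells, and SYCP3 at 198 CPM in spermatocytes and 255 CPM in early spermatids.

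Members with few panel genes differed from those with many. There were 103, 47, 25 and 15 cells with 4, 5, 6 and 7 panel genes. Their X-linked share was 1.81%, 0.972%, 0.400% and 0.535% of UMIs in that order, and their level of TDRD6, a Tudor-domain scaffold of the chromatoid body, the RNA granule of male germ cells, was 70.0, 139, 262 and 209 CPM. The 236 cells just outside, with 3 panel genes, had an X-linked share of 2.23%, a TDRD6 level of 34.8 CPM and 138 CPM of UCHL1, a spermatogonial ubiquitin hydrolase. The 97 cells kept out by a single DMRT1 UMI had 1.76% X-linked UMIs and 81.8 CPM of TDRD6. The 506 kept out by 2 or more DMRT1 UMIs had 2.58% X-linked UMIs and 10.8 CPM of TDRD6, with 252 CPM of UCHL1. UCHL1 was at 70.0 CPM in the members with 4 panel genes and 6.33 CPM in those with 6. Depth moved with these values: the median cell with 4, 5, 6 and 7 panel genes held 4234, 6324, 13316 and 17123 UMIs, and its part in them was not tested.

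**Figure D1:**
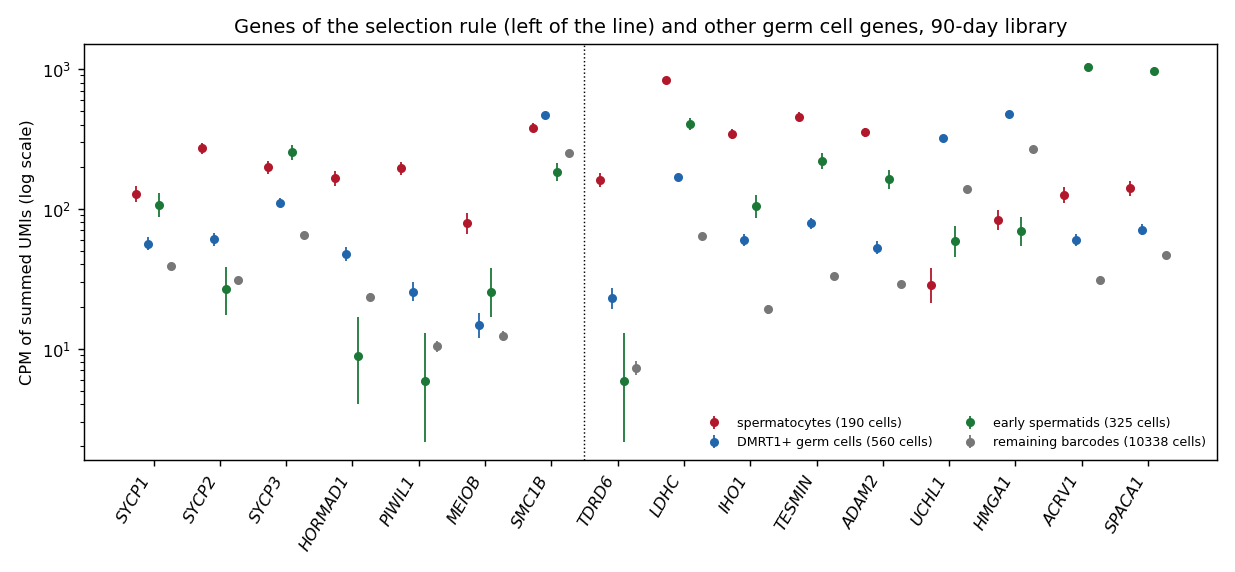
Levels (CPM of summed UMIs, log axis) of the 7 meiotic genes of the rule, left of the dotted line, and of 9 other germ cell genes, in spermatocytes, DMRT1-positive germ cells, early spermatids and the remaining barcodes of the 90-day library; bars are 95% counting intervals. TDRD6, LDHC, IHO1, TESMIN and ADAM2 were higher in spermatocytes than in the other 3 groups shown, UCHL1 and HMGA1 were highest in DMRT1-positive germ cells, and ACRV1 and SPACA1, which define the early spermatids, were highest there.

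Against all other passing barcodes, the genes that led the spermatocytes were TDRD6, ZBTB32, PROK2, LEP, PKMYT1, PTCHD3 and IHO1, none of them in the rule. Of 18118 measured genes, 2832 (15.6%) were at least 2-fold higher in spermatocytes and 5947 (32.8%) at least 2-fold lower, and the median gene had a log2 ratio of -0.38. The gene with the highest bound was TDRD6 (chromosome 7, 41468589 to 41485146 in Sscrofa11.1), the chromatoid body scaffold. It was found in 27.9% of spermatocytes. Its level was 160 CPM (142 to 180) in spermatocytes and 9.13 CPM (8.36 to 9.96) in the other barcodes, a log2 ratio of 4.13 (3.92 to 4.35). ZBTB32, a zinc finger transcriptional repressor, was at 457 and 33.3 CPM, and PKMYT1, the kinase that holds CDK1 inactive before division, at 204 and 15.2 CPM. IHO1, which in mice works with HORMAD1 at chromosome axes to allow DNA breaks, was at 342 and 26.8 CPM.

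Several of the leading genes are not usually listed as meiotic. PROK2, a secreted prokineticin, was at 206 CPM in spermatocytes and 14.6 CPM in the other barcodes. LEP, which encodes the hormone leptin, was at 106 and 7.41 CPM, and LEFTY2, a secreted inhibitor of NODAL signals, at 112 and 9.10 CPM. The other genes named by the ranking were PTCHD3 (log2 ratio 3.71), EFCAB5 (3.66), C22orf23 (3.63), BSPRY (3.52), CCDC38 (3.504), ICA1L (3.43), LYPD4 (3.37) and WDR87 (3.37). All 15 were higher in spermatocytes under each alternative computed, with log2 ratios between 2.18 for LEFTY2 and 4.398 for TDRD6. Having been picked for ratios far from no change, they were unlikely to change direction.

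The lowest genes belonged to somatic cells. RGS5, a regulator of G-protein signals in mural cells of vessels, was at 9.70 CPM in spermatocytes and 139 CPM in the other barcodes, a log2 ratio of -3.84 (-4.62 to -3.16). MGP, RARRES2, FBN1, DCN, CXCL12 and SPARCL1, products of stromal or vascular cells, had log2 ratios of -3.34 to -2.65. CYP17A1, the Leydig enzyme that makes androgen precursors, was at 30.3 CPM in spermatocytes and 209 CPM in the other barcodes. HES1, a target of NOTCH signals, and ISG12(A), an interferon-induced gene, completed the 10 lowest. Of the Sertoli list 12 of 13 measured genes were at least 2-fold lower in spermatocytes, of the peritubular and stromal list 12 of 12, of the Leydig list 6 of 6, of the endothelial list 6 of 8 and of the macrophage list 6 of 8. For the lymphocyte list it was 4 of 9, and over all measured genes 32.8%. AMH was the Sertoli gene closest to even, at 87.9 CPM in spermatocytes and 107 CPM in the other barcodes.

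**Figure D2:**
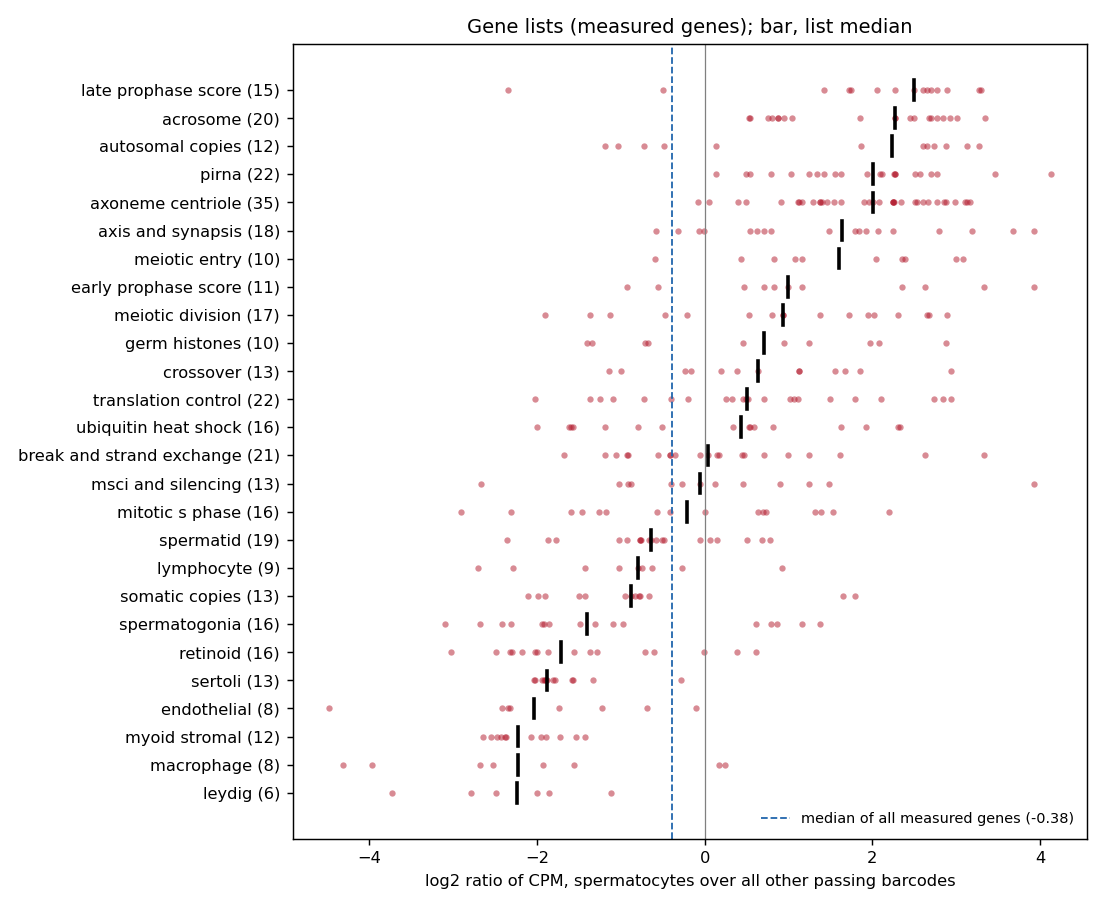
Log2 ratio of CPM in spermatocytes over all other passing barcodes of the 90-day library for the measured genes of 26 gene lists (points, with the number of measured genes in brackets) and the list median (bar); the dashed line is the median of all measured genes, -0.38. The lists of late-prophase, acrosome, autosomal copy, piRNA and axoneme genes had medians between 2.002 and 2.50 and the somatic marker lists had medians of -1.89 or lower except for lymphocytes.

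Genes of the chromosome axis and synaptonemal complex outside the rule were higher in spermatocytes. Of 18 measured genes 10 were at least 2-fold higher and 0 lower than in the other barcodes, with a list median of 1.64. The shares over all measured genes were 15.6% and 32.8%. HORMAD2, a second axis protein of unsynapsed chromosomes, was at 89.6 CPM in spermatocytes and 5.88 CPM in the other barcodes. TERB2, which anchors telomeres to the nuclear envelope, was at 89.0 and 9.79 CPM. The central elements SYCE1 and SYCE3 were at 569 and 572 CPM in spermatocytes, against 82.1 and 120 CPM in the other barcodes. STAG3, a meiotic cohesin subunit, was at 233 and 61.3 CPM. REC8, the meiotic kleisin, was at 30.8 and 32.3 CPM, and SUN1, a nuclear envelope tether, at 38.8 and 58.0 CPM.

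The recombination lists held genes on both sides. In the list for DNA breaks and strand exchange 4 of 21 measured genes were at least 2-fold higher in spermatocytes and 3 lower, with a median of 0.03. The shares over all measured genes were 15.6% and 32.8%, and the median gene stood at -0.38. The list's higher share was thus near that of all genes, and its lower share was smaller. Without the 57 cells with somatic markers, 6 of its genes were at least 2-fold lower. RAD51AP2 (log2 ratio 3.33), DMC1, the strand exchange enzyme of meiosis (2.63), SPATA22, the partner of MEIOB (1.61), and MCMDC2 (1.24) were the 4 higher. DMC1 was at 66.8 CPM in spermatocytes and 10.8 CPM in the other barcodes. SPO11, which makes the breaks, had 7 UMIs in all spermatocytes, 3.996 CPM (1.61 to 8.23), against 2.90 CPM (2.47 to 3.38) in the other barcodes, and a difference was not detectable at this depth. RPA1, MND1 and ATM were the 3 lower. In the crossover list 6 of 13 genes were at least 2-fold higher and 1 lower. CNTD1, a cyclin-like regulator of crossover number in mice, was at 41.7 CPM in spermatocytes and 5.44 CPM in the other barcodes, and MLH3, a mismatch repair protein that acts at crossover sites, at 117 and 32.3 CPM. CCNB1IP1 was the lower gene, at 15.4 and 34.1 CPM.

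The piRNA pathway was among the lists with the highest medians. Of 22 measured genes outside the rule 18 were at least 2-fold higher in spermatocytes and 0 lower, with a median of 2.01, beside 15.6% higher and 32.8% lower over all measured genes. PNLDC1, which trims piRNA ends, was at 14.3 CPM in spermatocytes and 1.30 CPM in the other barcodes. MYBL1, the transcription factor of pachytene piRNA clusters in mice, was at 98.2 and 15.2 CPM, and TCFL5, another such factor, at 482 and 70.8 CPM. TDRD1 and TDRD5, Tudor proteins of the same granules, were at 149 and 52.5 CPM in spermatocytes, against 26.1 and 10.9 CPM. The 4 genes under 2-fold were TDRD9, ASZ1, PIWIL2 and TDRD12, with log2 ratios of 0.79, 0.54, 0.50 and 0.14. DDX4 and MAEL belong to this list and define the DMRT1-positive germ cells.

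Genes that govern entry into meiosis and the divisions were higher in part. In the entry list 7 of 10 measured genes were at least 2-fold higher and 0 lower. KCTD19 and ZNF541, which act together in a chromatin complex of mouse pachytene cells, were at 122 and 291 CPM in spermatocytes, against 14.4 and 55.6 CPM. SPDYA, the telomere-bound activator of CDK2, was at 390 and 48.8 CPM. STRA8, the retinoic acid target that starts meiosis, was at 26.3 and 11.7 CPM. In the division list 8 of 17 genes were at least 2-fold higher and 3 lower. Both lists stand beside 15.6% higher and 32.8% lower over all measured genes. CCNA1, the cyclin of meiotic male germ cells, was at 125 and 16.8 CPM, CCNB2 at 238 and 37.9 CPM, and SGO2, the protector of sister cohesion, at 542 and 109 CPM. CDK1 itself was at 7.99 CPM in spermatocytes and 11.07 CPM in the other barcodes.

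In the list of DNA replication and mitosis 4 of 16 genes were at least 2-fold higher in spermatocytes and 6 lower, beside 15.6% higher and 32.8% lower over all measured genes. The 4 higher were CDC20, BIRC5, TOP2A and CENPF, and the 6 lower were MCM2, MCM3, MCM4, MCM5, MCM6 and TYMS. TOP2A, the DNA-untangling topoisomerase, was at 682 CPM in spermatocytes and 261 CPM in the other barcodes. MCM3, a subunit of the replication helicase, was at 9.13 and 45.3 CPM.

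Transcripts for sperm structures were higher in spermatocytes. Of 35 genes of the axoneme, centriole and ciliary transport 30 were at least 2-fold higher in spermatocytes and 0 lower, with a median of 2.002. DNAH1, a dynein heavy chain of the inner arms, was at 43.4 CPM in spermatocytes and 4.83 CPM in the other barcodes, SPAG6, of the central pair, at 421 and 61.6 CPM, and ODF2, of the outer dense fibres, at 962 and 331 CPM. Of 20 genes of the acrosome and sperm surface 13 were higher by that measure and 0 lower, with a median of 2.27. ADAM2, which pairs with other ADAM proteins on sperm, was at 352 and 34.8 CPM, CLGN, the germ cell chaperone calmegin, at 1914 and 294 CPM, and ACRBP, which binds proacrosin, at 1160 and 181 CPM. Without the 26 cells with early spermatid genes, 26 of the axoneme genes and 12 of the acrosome genes were at least 2-fold higher, and 0 and 5 lower. Those cells were left out for their ACRV1, SPACA1, SPACA3 and ACTL7B UMIs, genes of the acrosome and spermatid lists, which in part sets these counts. In the list of postmeiotic spermatid genes 0 of 19 measured genes were at least 2-fold higher and 4 lower, and without the 26 cells 16 were lower. With all spermatocytes 15.6% of all measured genes were higher and 32.8% lower.

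In the list of translation control 9 of 22 measured genes were at least 2-fold higher in spermatocytes and 4 lower. Over all measured genes 15.6% were higher and 32.8% lower. YBX2 and YBX3, Y-box proteins that bind and store germ cell transcripts, were at 1520 and 4601 CPM in spermatocytes, against 212 and 600 CPM in the other barcodes. BOLL, a germ cell RNA-binding protein of the DAZ family, was at 216 and 32.6 CPM. In the list of testis chaperones and proteasome genes 4 of 16 were higher by that measure and 5 lower, the latter near the share over all genes. HSP90AA1, a chaperone of piRNA loading, was at 6571 and 2134 CPM. In the list of testis histones and chromatin proteins 4 of 10 were higher and 2 lower, and BRDT, the testis bromodomain protein, was at 795 and 108 CPM. The retinoid list, by contrast, had 0 of 16 genes at least 2-fold higher and 11 lower, and RARA, a retinoic acid receptor, was at 6.85 CPM in spermatocytes and 38.5 CPM in the other barcodes.

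The DMRT1-positive germ cells, a set that can hold spermatogonia and cells entering meiosis, stood for the stage before. Of 11373 measured genes 1833 (16.1%) were at least 2-fold higher in spermatocytes and 2757 (24.2%) lower, with a median log2 ratio of -0.20. The highest bounds were those of EFCAB5, ADAM2, TDRD6, PROK2, WDR87, CCDC38, TESMIN and PTCHD3. ADAM2 was at 352 CPM in spermatocytes and 52.8 CPM in DMRT1-positive germ cells, a log2 ratio of 2.74 (2.54 to 2.93). TESMIN, a cysteine-rich protein of spermatocytes, was at 457 and 79.0 CPM, a log2 ratio of 2.53 (2.37 to 2.69). UCHL1 was at 28.5 CPM in spermatocytes and 323 CPM in DMRT1-positive germ cells, a log2 ratio of -3.4998 (-3.93 to -3.10). PEG10, an imprinted retrotransposon-derived gene, was at 29.1 and 282 CPM, PARP1, a DNA repair enzyme, at 57.7 and 368 CPM, and HMGA1, a chromatin protein of dividing cells, at 83.3 and 479 CPM. DUT and DKC1, of nucleotide supply and ribosome assembly, and COX20 and HERC5 were the other 4 of the 8 lowest.

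Against DMRT1-positive germ cells, 9 of 17 axis genes were at least 2-fold higher in spermatocytes and 0 lower, and 13 of 20 piRNA genes were higher and 0 lower. By contrast 1 of 19 genes for breaks and strand exchange was higher, DMC1, at 66.8 CPM in spermatocytes and 15.7 CPM in DMRT1-positive germ cells, and 7 were lower. Of the 16 replication and mitosis genes 1 was higher, CDC20, and 7 lower. Over all measured genes of this comparison 16.1% were higher and 24.2% lower. KIT, the receptor of differentiating spermatogonia, was at 14.8 CPM in spermatocytes and 73.1 CPM in DMRT1-positive germ cells, and ZBTB16, of undifferentiated spermatogonia, at 13.1 and 46.9 CPM. A change of scaling to TMM factors moved all ratios of this comparison by -0.10.

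Early spermatids stood for the stage after. Of 7649 measured genes 1107 (14.5%) were at least 2-fold higher in spermatocytes and 1662 (21.7%) lower, with a median log2 ratio of 0.03. TDRD6 was at 160 CPM in spermatocytes and 5.90 CPM in early spermatids, on 6 UMIs, a log2 ratio of 4.77 (3.63 to 6.22). PKMYT1 was at 204 and 8.85 CPM, a log2 ratio of 4.53 (3.58 to 5.67). CKS2, the small subunit of cyclin-dependent kinases, was at 555 and 67.8 CPM, NEK2, a kinase of centrosomes and chromosome segregation, at 422 and 60.0 CPM, and PBK, a mitotic kinase, at 278 and 36.4 CPM. EFCAB5, CCDC112 and ZBTB1 completed the 8 highest. Of the division list 7 of 11 measured genes were at least 2-fold higher and 0 lower, and of the piRNA list 11 of 20 and 0.

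Among the genes lower in spermatocytes, ARPP21 was at 15.4 CPM in spermatocytes and 243 CPM in early spermatids, and TMEM190, a sperm membrane protein, at 200 and 1511 CPM. ACRV1, which defines the early spermatids, was at 126 and 1041 CPM. IQCA1L, CNKSR1, C11orf94 and PDILT, a testis protein disulphide isomerase-like chaperone, had log2 ratios of -3.33 to -2.90. These values moved with the 26 spermatocytes that held early spermatid genes. Without those cells the log2 ratio was -5.71 for ARPP21 and -4.73 for TMEM190, and those of IQCA1L, CNKSR1, C11orf94 and PDILT were between -5.22 and -4.76. ACRV1 was at -6.03, a value fixed by leaving out cells for that gene. For the axoneme and acrosome lists the counts stand beside 14.5% higher and 21.7% lower over all measured genes. Of 33 axoneme genes 3 were at least 2-fold higher in spermatocytes and 8 lower, with a median of -0.14 that was 0.03 with TMM factors. These factors moved all ratios of this comparison by 0.17, the median of all measured genes, 0.03 before, included. Of 20 acrosome genes 2 were higher and 8 lower, and 3 of those 8, ACRV1, SPACA1 and SPACA3, define the early spermatids, so their place was fixed by that choice. ACR, the acrosomal protease acrosin, was at 551 CPM in spermatocytes and 1495 CPM in early spermatids.

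Protamine-high spermatids differed further. Of 9829 measured genes 2255 (22.9%) were at least 2-fold higher in spermatocytes and 2354 (23.9%) lower, and all 19 measured genes of the spermatid list were lower.

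The X chromosome stood apart from the autosomes, a property the rule did not use. Of the 14481 features with a chromosome 499 lie on X, and X-linked genes held 1.02% (1.0003 to 1.03%) of the spermatocytes' UMIs with a chromosome, against 2.89% (2.89 to 2.90%) in the other passing barcodes. The share was 2.45% in DMRT1-positive germ cells, 1.86% in early spermatids and 2.17% in protamine-high spermatids. Per cell, the median was 1.25% in spermatocytes, 2.61% in DMRT1-positive germ cells, 1.48% in early spermatids and 2.16% in protamine-high spermatids. The spermatocytes were spread widely, with quartiles of 0.633% and 2.43%, and their 10th to 90th percentiles, 0.273 to 2.90%, overlapped the 1.697 to 3.17% of DMRT1-positive germ cells. Cells under 1% made up 76 of 190 spermatocytes (40%), against 250 of 12485 other barcodes (2.002%).

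Gene by gene, 284 of 403 measured X-linked genes (70.5%) were at least 2-fold lower in spermatocytes than in the other barcodes and 3 (0.744%) higher, with a median log2 ratio of -1.48. The autosomal medians lay between -0.60 (chromosome 4) and -0.32 (chromosome 11). Against DMRT1-positive germ cells the median of 264 X-linked genes was -1.22 and 61.7% were at least 2-fold lower, and against early spermatids the median of 135 genes was -0.92. RPL10, a ribosomal protein gene, was at 527 CPM in spermatocytes and 1979 CPM in the other barcodes. SSR4, a subunit of the translocon at the endoplasmic reticulum, was at 490 and 892 CPM, and TMSB4X, which binds actin, at 172 and 931 CPM. The 3 X-linked genes at least 2-fold higher were FAM50A, MPC1L and ZRSR2. FAM50A (X, 124967821 to 124973487) was at 126 CPM in spermatocytes and 37.1 CPM in the other barcodes, a log2 ratio of 1.76 (1.55 to 1.96). MPC1L, a testis copy of a mitochondrial pyruvate carrier subunit, was at 23.4 and 8.09 CPM, and ZRSR2, a splicing factor of minor introns, at 9.70 and 4.67 CPM on 17 UMIs.

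In cells thinned to 2000 UMIs the X-linked share was 1.46% in spermatocytes (19 shallower cells left out), 2.54% in DMRT1-positive germ cells (16 left out) and 1.75% in early spermatids (132 left out). Weighting cells equally gave 1.501% for the spermatocytes. Without the 57 cells with somatic markers the summed share was 0.718%, and without the 26 cells with early spermatid genes 1.04%.

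**Figure D3:**
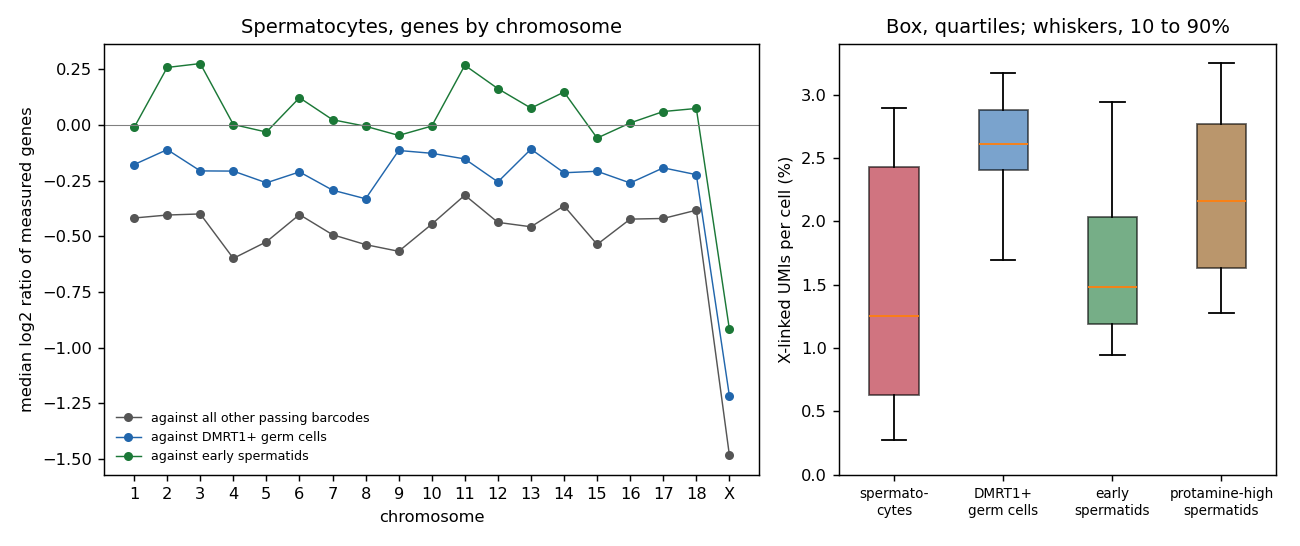
Left, median log2 ratio of CPM of the measured genes on each chromosome for spermatocytes against 3 sets of cells of the 90-day library; right, X-linked UMIs per cell as a percentage of UMIs with a chromosome in 4 sets of cells (line, median; box, quartiles; whiskers, 10th to 90th percentile). X was the lowest chromosome in all 3 comparisons, at -1.48, -1.22 and -0.92, and the median cell held 1.25% in spermatocytes, 2.61% in DMRT1-positive germ cells, 1.48% in early spermatids and 2.16% in protamine-high spermatids.

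Of 12 measured autosomal testis copies of somatic genes 7 were at least 2-fold higher than in the other barcodes and 2 lower. Of 13 measured counterparts 2 were higher and 5 lower, beside 15.6% higher and 32.8% lower over all measured genes. PGK2, the copy of the glycolytic kinase PGK1, was at 412 CPM in spermatocytes and 67.5 CPM in the other barcodes, whereas the X-linked PGK1 was at 18.3 and 72.4 CPM. RPL10L was at 469 and 53.4 CPM and CETN1 at 52.5 and 8.33 CPM, whereas the X-linked RPL10 was at 527 and 1979 CPM and CETN2 at 73.6 and 143 CPM. RPL10L and RPL10 are near-identical copies whose reads the counting could split, so both values are uncertain. GK2, a glycerol kinase copy, was at 363 and 49.6 CPM. LDHC, the testis lactate dehydrogenase, was at 832 and 86.0 CPM, and LDHA, its autosomal relative, was also higher, at 186 and 59.0 CPM. PABPC1 was the other counterpart at least 2-fold higher.

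Spermatocytes varied along a score made of prophase genes. Each cell was placed by the share of late-prophase UMIs among UMIs of 13 early-prophase and 15 late-prophase genes, none of them in the rule, which scored 176 cells with at least 5 such UMIs. Their order was divided into an early group of 59 cells (0 to 77.8% late), a middle group of 59 (80 to 96%) and a late group of 58 (96.03 to 100%). These are ranges of a score and not cell types, with 11 cells within 5 points of the lower limit and 93 within 5 points of the upper. In the order early, middle and late, the median cell held 5013, 5777 and 8136.5 UMIs.

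X-linked UMIs made up 2.47%, 0.695% and 0.511% of the early, middle and late groups, and cells under 1% were 4 of 59, 31 of 59 and 41 of 58. The median mitochondrial share was 5.44%, 0.518% and 0.283% in the same order. Across the 176 cells Spearman's rho of the late share was -0.64 with the X-linked share, -0.62 with the mitochondrial share and 0.24 with UMIs per cell. Across the 103 scored cells without early spermatid genes or somatic markers it was -0.52, -0.63 and 0.25. That somatic criterion does not use the Sertoli list, so cells with Sertoli RNA can remain among the 103. All of these cells come from 1 library and their score and X-linked share come from the same counts, so no test was made. Cells with somatic markers were 31, 9 and 9 of the 3 groups, and cells with early spermatid genes 2, 17 and 7. The early group's 2.47% lay beside the 2.45% of DMRT1-positive germ cells. The part of somatic RNA and of mitochondrial content in these values was not tested.

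**Figure D4:**
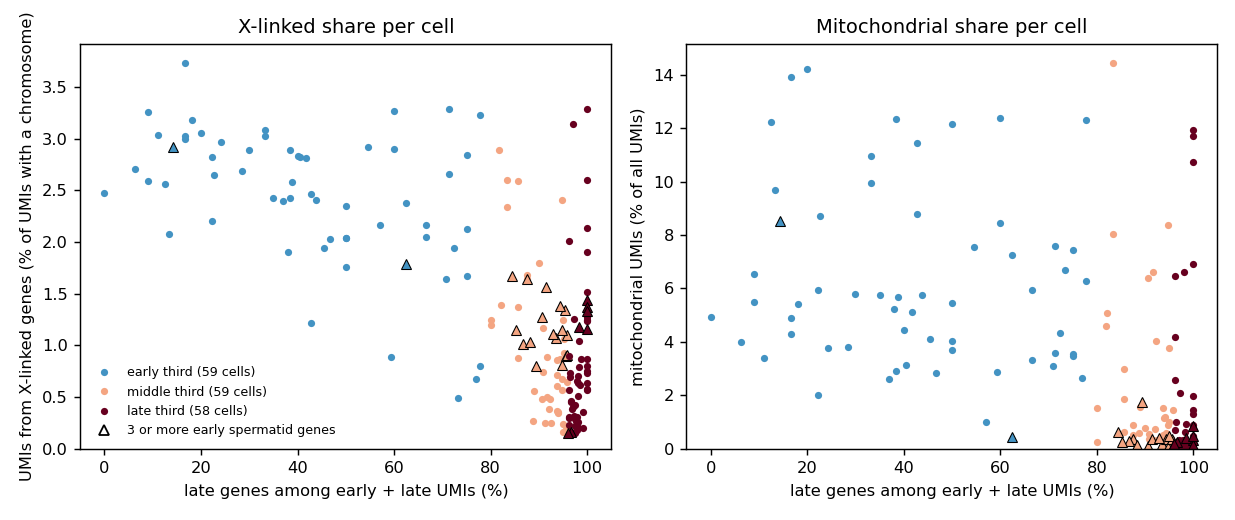
X-linked share (left) and mitochondrial share (right) of each of the 176 scored spermatocytes, in percent, against the percentage of late-prophase UMIs among its early- and late-prophase UMIs; colours give the early, middle and late groups and triangles the cells with 3 or more early spermatid genes. X-linked and mitochondrial shares were lower at the late end, with group medians of 2.56%, 0.904% and 0.634% X-linked and 5.44%, 0.518% and 0.283% mitochondrial UMIs from early to late, and single cells of the late group above 2% X-linked.

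Between late and early spermatocytes, 1411 of 4153 measured genes outside the 2 score lists (34%) were at least 2-fold higher in late cells and 904 (21.8%) lower, with a median log2 ratio of 0.33. TMM factors added 0.78 to every log2 ratio of this comparison, that of the median gene included, which gave 2186 higher and 461 lower. The counts thus hang on the scaling. A gene's distance from the median gene does not, so ratios here are best read against the median gene. BHMT, which methylates homocysteine, was at 388 CPM in late cells and 5.74 CPM in early cells, on 2 UMIs, a log2 ratio of 6.08 (4.21 to 9.13). GGN, gametogenetin, was at 823 and 25.8 CPM and CCDC38, a coiled-coil protein, at 471 and 14.4 CPM. LEFTY2 was at 187 CPM and LEP at 168 CPM in late cells with 0 UMIs in early cells, at least 21.7-fold and 19.5-fold higher against a floor of 3 counts over the group. CCDC30, LUZP2 and TNFAIP8L1 had log2 ratios of 4.44, 4.43 and 4.996. Without the 57 cells with somatic markers, 31 of them early, the order was divided anew, into 43 early and 42 late cells. In these groups the log2 ratio was 4.05 for BHMT, 4.01 for GGN, 3.39 for CCDC38, 2.81 for LUZP2 and 2.27 for CCDC30. Lower genes were 539 of 3416 measured. Cells of the former middle group entered the new early group, so the removal and the new division cannot be told apart in these values.

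Lower in late cells were 2 X-linked genes, SCML2 and TKTL1, and 6 others. SCML2 (X, 14715357 to 14823016), a germline Polycomb protein, was at 8.84 CPM in late cells and 235 CPM in early cells, a log2 ratio of -4.74 (-6.09 to -3.63). TKTL1, a transketolase relative, was at 6.31 and 204 CPM. HSF2, a heat shock factor of the testis, was at 7.57 and 195 CPM, JARID2, a Polycomb cofactor, at 16.4 and 350 CPM, and HMGA1 at 11.4 and 250 CPM. DHRS4, HOMER2 and the linker histone gene H1-4 had log2 ratios of -5.11, -5.23 and -5.12. In the groups divided anew without the 57 cells with somatic markers, DHRS4 was at -2.09 and the other 7 were between -4.99 and -4.04. On X as a whole 39 of 43 measured genes (90.7%) were at least 2-fold lower in late cells and 1 higher, with a median of -2.36. The autosomal medians lay between -0.10 (chromosome 16) and 0.57 (chromosome 10).

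By function, 8 of 9 measured division genes were at least 2-fold higher in late cells and 0 lower, with a median of 2.23. CCNB2 was at 367 CPM in late cells and 20.1 CPM in early cells, AURKB, the kinase of the chromosomal passenger complex, at 157 and 17.2 CPM, and CDK2 at 181 and 14.4 CPM. Of 25 axoneme genes 19 were higher and 1 lower, and of 14 acrosome genes 10 and 0. Of 16 measured piRNA genes 8 were at least 2-fold higher in late cells and 3 lower, with a median of 1.05. Among the lower, PIWIL2, the piRNA-binding protein of earlier germ cells, was at 17.7 CPM in late cells and 241 CPM in early cells, and TDRD12, a Tudor protein of the piRNA pathway, at 17.7 and 147 CPM. Of the somatic markers 6 of 7 measured Sertoli genes and 7 of 7 peritubular and stromal genes were at least 2-fold lower in late cells. The 1 measured Leydig gene was lower too, whereas of 3 measured lymphocyte genes 2 were at least 2-fold higher and 1 lower. The Sertoli and stromal medians were -1.16 and -1.90, and -0.39 and -1.12 with TMM factors. Of the axis list 3 of 10 measured genes were higher in late cells and 2 lower, near the 34% and 21.8% over all measured genes. IHO1 had the highest ratio of that list, at 34.5 CPM in early, 341 CPM in middle and 501 CPM in late cells, and TERB1 the lowest. The median of the axis list, -0.59, became 0.19 with TMM factors. The median of all measured genes, 0.33, moved by the same 0.78, so the axis, Sertoli and stromal lists stayed as far below it. Among the rule's own genes SYCP1 was at 388 CPM in early, 70.3 CPM in middle and 49.2 CPM in late cells.

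The same rule picked other cells in younger testes, a comparison added after the data were seen. It was met by 99 (0.715%) of 13847 passing barcodes at 7 days, 174 (1.01%) of 17285 at 30 days, 34 (0.284%) of 11991 at 60 days and 190 (1.499%) of 12675 at 90 days. The cells of the younger libraries were deeper, with medians of 16250, 9738 and 12634.5 UMIs at 7, 30 and 60 days. The rule's genes chose the cells at every age, so their levels describe the choice: SYCP1 was at 109, 145, 186 and 127 CPM and SYCP3 at 222, 227, 206 and 198 CPM at 7, 30, 60 and 90 days. PIWIL1 was at 16.0, 23.4, 15.3 and 196 CPM in the same order, and HORMAD1 at 29.3, 46.8, 72.3 and 165 CPM.

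The genes outside the rule given here were picked with their values known. IHO1 had 0, 0, 1 and 599 UMIs in the rule's cells at 7, 30, 60 and 90 days, and stood at 342 CPM at 90 days. ADAM2 was at 1.66, 3.05, 0 and 352 CPM, LDHC at 59.6, 51.4, 41.6 and 832 CPM and TESMIN at 17.7, 17.3, 17.5 and 457 CPM. DND1, an RNA-binding protein that primordial germ cells need in mice, was at 494, 488, 322 and 21.1 CPM. PIWIL4, the nuclear piRNA-binding protein of fetal prospermatogonia in mice, was at 145, 173, 151 and 8.56 CPM, and MORC1, a silencer of transposons at that stage, at 235, 195, 228 and 11.4 CPM. TDRD6 was at 125, 182, 110 and 160 CPM, MYBL1 at 58.5, 66.1, 63.5 and 98.2 CPM and CCNA1 at 71.8, 59.5, 48.2 and 125 CPM. Some leading genes of the 90-day cells had ratios over the other barcodes that were larger in a younger library, with log2 values of 4.05 for WDR87 and 4.12 for BSPRY at 7 days and 4.18 for EFCAB5 at 60 days. For TDRD6 the same log2 ratio in the rule's cells was 3.93, 3.10 and 3.99 at 7, 30 and 60 days. The X-linked share of these cells was 2.38%, 2.34%, 2.41% and 1.02%, against 3.53%, 3.46%, 3.36% and 2.89% in the other barcodes of each library.

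Set against the rule's cells at 30 days, the 90-day spermatocytes had 2313 of 9285 measured genes (24.9%) at least 2-fold higher and 2916 (31.4%) lower. Against those at 7 days it was 2433 of 9100 (26.7%) and 2796 (30.7%). Both comparisons share the 90-day cells. DKKL1, an acrosomal protein, was at 3109 CPM at 90 days and 2.04 CPM at 30 days, and IZUMO4 at 1959 and 1.02 CPM. HSPB9, a small heat shock protein of the testis, SEPTIN12, of the sperm annulus, and ACR, acrosin, were at 1762, 715 and 551 CPM at 90 days with 0 UMIs at 30 days. LFNG, which modifies NOTCH receptors, was at 3.42 CPM at 90 days and 159 CPM at 30 days, FHL3 at 5.71 and 179 CPM and FGF8, a growth factor, at 3.996 and 124 CPM. The cells that met the rule before 90 days thus held DND1, MORC1 and PIWIL4 at 145 CPM or more, and IHO1 and ADAM2 at 3.05 CPM or less. The label of meiotic spermatocytes is used here for the 90-day cells.

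**Figure D5:**
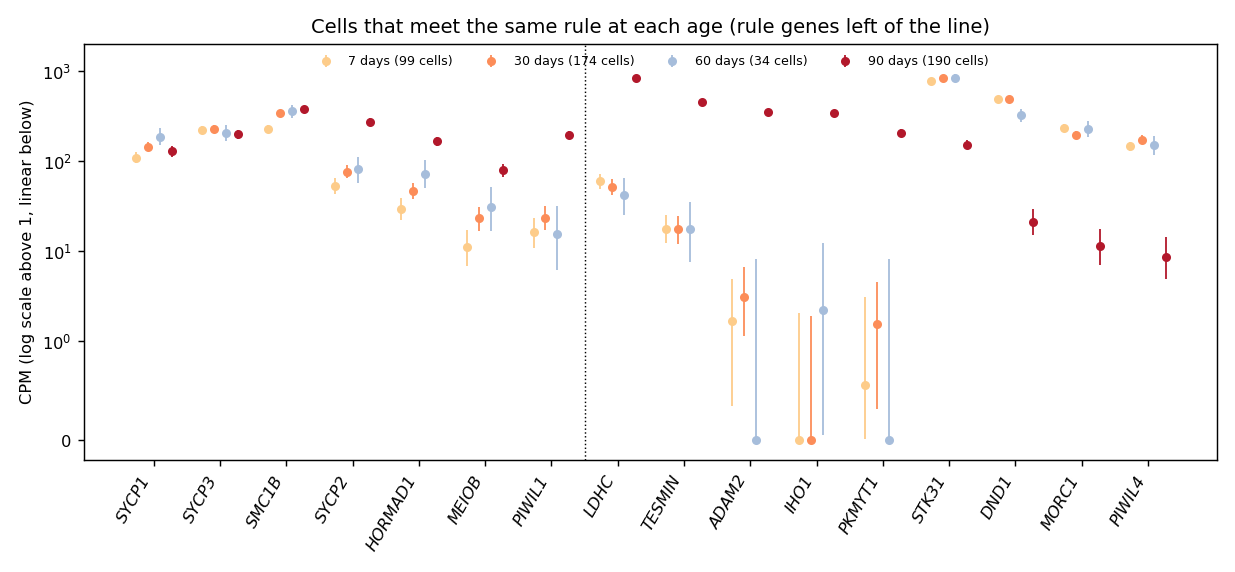
Levels (CPM, log axis above 1 and linear below, 95% counting intervals) in the cells that met the same rule at 7, 30, 60 and 90 days; rule genes stand left of the dotted line. SYCP1, SYCP3 and SMC1B stood between 109 and 381 CPM at the 4 ages, PIWIL1, LDHC, TESMIN, ADAM2, IHO1 and PKMYT1 were highest at 90 days, and DND1, MORC1, PIWIL4 and STK31 were lowest there.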

How the data were processed

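Single-cell RNA was captured with 10x Chromium 3′ version 3 chemistry in 4 libraries, 1 per age, per the labels' protocols. The deposited values are raw UMI counts per gene and barcode, made with Cell Ranger 5.0.1 per the file headers; the submitters' processing notes also name bcl2fastq, Scanpy 1.7.1 and the build Sscrofa11.1. Of 31908 features 17323 had a name (815 from a reference table), and chromosomes were looked up by symbol in a RefSeq table of Sscrofa11.1.

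The 90-day library held 17494 barcodes and 64372068 UMIs, against 96133720, 77992845 and 45717373 UMIs at 7, 30 and 60 days. Counts were summed over the cells of a group; ratios, exact intervals, list counts and X-linked shares were computed with Python 3.11.15, NumPy 2.4.6, SciPy 1.17.1 and pandas 2.3.3, Scrublet calls with scanpy 1.11.5, TMM factors with edgeR 4.0.16 in R 4.3.3 as an alternative scaling, and the intervals were tested on simulated data. A group with 0 UMIs was set at a floor of 3 counts over the group. No sample column was left unused. Free RNA was not removed, and summing weights deep cells most.

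The cells, the 28 gene lists (463 genes, 69 of them without a feature used here) and the comparisons were chosen with earlier results of these data known. Genes were named by rule: among genes of at least 100 CPM in the higher group, those with the interval bound farthest from no change, 15 highest and 10 lowest against all other barcodes and 8 each way in the other comparisons, together with the extremes of each list; 1 gene ranked among the lowest against early spermatids is not reported here. Other list members, X-linked genes and the genes compared across ages were named with their values known. Of the genes meant to define the comparison sets, 2 of 4 for germ cells and 4 of 7 for early spermatids had a feature. Alternatives changed the number of panel genes, the UMI, mitochondrial and protamine limits, doublets, free RNA, weighting, scaling, the UMI minimum per gene and the score minimum.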

Additional observations from a re-analysis of the deposited data

Results flagged for a closer look

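PKMYT1, the kinase that holds CDK1 inactive, differed in direction between ages. At 90 days it was higher in the rule's cells than in the other passing barcodes, with a log2 ratio of 3.75. At 7 days the log2 ratio was -2.76 (counting interval -8.06 to -0.27), from 1 UMI in the rule's cells and 341 in the other barcodes, and at 30 days it was -0.16. With 1 library per age the difference between ages was not tested.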

How the results depend on the processing

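No paired analysis was possible because each age has 1 library and the comparisons are between cells of the same library. None of the 73 ratios of genes named by rule changed direction under any alternative. These genes were picked from the same data for ratios far from no change, so a change of direction was unlikely from the start. Of 746 recomputed ratios 559 stayed within their counting interval and 187 did not. The 559 include 73 at a minimum of 1 UMI per gene and 73 at a minimum of 200. Those 2 settings choose which genes are measured and cannot change a ratio. The number of spermatocytes was 426 (3.36% of passing barcodes) with at least 3 panel genes and 87 (0.686%) with at least 5, and the share was 2.08% among barcodes of at least 2000 UMIs and 1.09% with a protamine limit of 0.2%. With a minimum of 1 UMI per gene, 8439 of 24808 genes were called at least 2-fold higher against all other barcodes. It was 4694 of 20424 against DMRT1-positive germ cells, 2443 (5101 lower) of 17996 against early spermatids and 2148 (7351 lower) of 14514 between late and early cells. At this minimum the floor of 3 counts can call a gene higher in spermatocytes that had 0 UMIs there. These calls are therefore no count of higher genes. With a minimum of 200 UMIs the genes at least 2-fold higher were 1160 (1507 lower) against DMRT1-positive germ cells, 470 (453 lower) against early spermatids and 579 (151 lower) between late and early cells. Between late and early cells TMM factors gave 2186 higher and 461 lower. With the groups divided anew, the lower genes were 383 of 2858 with at least 5 panel genes. Without the cells with somatic markers, also divided anew, they were 539 of 3416. Lists with a median of at least 2-fold higher against all other barcodes were 11 with cells weighted equally and 7 with summed counts.

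The X-linked share of all spermatocytes, 1.02% in the summed counts, was 0.632% with at least 5 panel genes, 0.918% without Scrublet doublets, 0.828% after subtraction of 10% free RNA, 1.501% with cells weighted equally, 1.46% thinned, 1.04% without the cells with early spermatid genes and 0.718% without those with somatic markers. With at least 5 panel genes, or without doublets, early spermatid genes or somatic markers, the groups were divided anew, so cells could change group. The early share was then 1.998% (28 cells), 2.38% (56), 2.54% (50) and 1.78% (43) in that order. With the first division kept, the median early cell held 2.56%, and 2.37% without cells with early spermatid genes or somatic markers. In late cells the X-linked share was 0.327% with at least 5 panel genes, 0.409% without doublets, 0.289% after subtraction of free RNA, 0.8302% with cells weighted equally, 0.8301% thinned and 0.423% without somatic markers. The cause of these shifts was not tested. The list for breaks and strand exchange, with a median of 0.03 against all other barcodes, had -0.23 without the cells with somatic markers. Depth limits genes with few UMIs in 190 cells, and the small early group most.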
